A study of Mus musculus with 4 samples.

Results

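FGF ligands and the genes that answer ERK were followed here as a group of 39 listed genes in 5 families: the Dusp phosphatases, the Spry and Spred inhibitors, the Etv factors, the Egr, AP-1 and other early-response genes, and 5 FGF ligands. A gene was measured where a probe set, the set of short oligonucleotides that reads 1 transcript, carried its symbol and no other in the platform annotation. That held for 38 of the 39 genes, with 76 probe sets, out of 18193 genes and 45037 probe sets in all. The 3 probe sets of Etv1 carry a second symbol, and Etv1 was not analysed here. The samples were E14 cells, a line of mouse embryonic stem (mES) cells kept in serum and LIF, the cytokine that keeps mES cells undifferentiated. In the 2 Zfp322a RNAi samples the cells had been transfected by lipofection with a pSuper.puro plasmid that makes a short hairpin RNA against Zfp322a, which encodes a zinc finger protein. In the 2 control RNAi samples they had received pSuper.puro, called mock by the labels. The labels give 3 days of puromycin selection for both groups, while a longer selection before the arrays is described in the study. Both groups thus share the transfection and the drug, and the cells measured are a pool of transfected cells and not clones. The study sets Zfp322a beside the MAPK/ERK pathway, and the comparison asks which transcripts that follow this pathway differed when Zfp322a mRNA was lowered.

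FGF ligands bind receptor tyrosine kinases at the cell surface, and the signal runs through RAS, RAF and MEK to the kinase ERK, which switches on early transcription factors within minutes. ERK also switches on its own brakes: Dusp phosphatases remove its activating phosphates, and Spry and Spred proteins act higher up, between the receptor and RAF. In mES cells Fgf4 made by the cells themselves is the main ligand of this pathway, and ERK activity moves them from self-renewal towards differentiation. Transcript levels of the brakes and of the Etv factors are widely used as a readout of ERK activity, but they do not measure ERK phosphorylation.

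2 hairpins against Zfp322a were designed in the study, and the labels do not say which one was used for the arrays. They are shown because the group is defined by them, with the 19 bases of the sense target in capitals, then the loop and the antisense strand. Zfp322a lies on chromosome 13.
Zfp322a shRNA-1: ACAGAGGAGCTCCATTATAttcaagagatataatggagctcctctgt
Zfp322a shRNA-2: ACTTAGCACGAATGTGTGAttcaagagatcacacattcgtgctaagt
The targeted transcript was lower in both knock-down samples. The brighter Zfp322a probe set read 7.53 and 7.13 in Zfp322a RNAi cells, against 8.75 and 8.84 in control RNAi cells, on the log2 scale of the deposited values. The log2 change, Zfp322a RNAi minus control RNAi, was -1.47 ± 0.14 (standard error, n = 2 arrays per group, adjusted p = 0.00158), which left 36.2% of the control level.

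Values throughout are log2 signals, and a gene with several probe sets is given by the one with the highest mean over the 4 arrays unless said otherwise. The 4 arrays had medians of 6.07 to 6.11, and over all probe sets they correlated at 0.9975 and 0.9976 within the groups and at 0.9887 to 0.99 between them. No label states that the replicates were separate cultures, so the p-values cover only the spread between these arrays, which may be technical. Of 9 mES markers, 0 were higher in Zfp322a RNAi cells, beside 14% of all genes. 3 of them (Esrrb, Tdgf1 and Utf1) were lower, or 33.3%, beside 14.4% of all genes. Pou5f1, Nanog, Sox2, Zfp42, Dppa5a and Fbxo15 did not pass the test, with changes of -0.16 to 0.06. The mean log2 signal of the 9 was 12.27 and 12.28 in Zfp322a RNAi cells, against 12.49 and 12.46 in control RNAi cells. Both groups thus carried the markers of their labelled cell type. In RNA from a whole culture, a change in the share of some cells and a change in the RNA per cell cannot be told apart.

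Few of the 38 measured genes moved, and those that did went both ways. Dusp9, Jun, Phlda1, Spry2, Fgf15 and Fos were higher in Zfp322a RNAi cells, Etv4 and Ier3 were lower, and 30 genes did not pass the test (limma, Benjamini-Hochberg over all 18193 genes, threshold 0.05). The 6 higher genes are 15.8% of the 38, beside 14% of all genes that were higher. The 2 lower genes are 5.26% of the 38, beside 14.4% of all genes that were lower. Under the study's cutoff of 1.5-fold, without any test, 3 of the 38 genes were higher (Dusp9, Jun and Phlda1), beside 5.05% of all genes. Etv4 and Ier3 were lower, 5.26% of the 38, beside 3.20% of all genes. The median log2 change of the 38 genes was 0.06, and that of all genes was -0.04. Both Zfp322a RNAi arrays lay above both control RNAi arrays for 16 of the 38, which 26.8% of all genes did, and below them for 7, which 35.8% of all genes did. By the test, the higher share was close to that of all genes and the lower share was below it. At 1.5-fold both shares were above those of all genes. Counted by arrays that did not overlap, the share above the control was larger than that of all genes and the share below it smaller. None of these differences was tested.

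**Figure D1:**
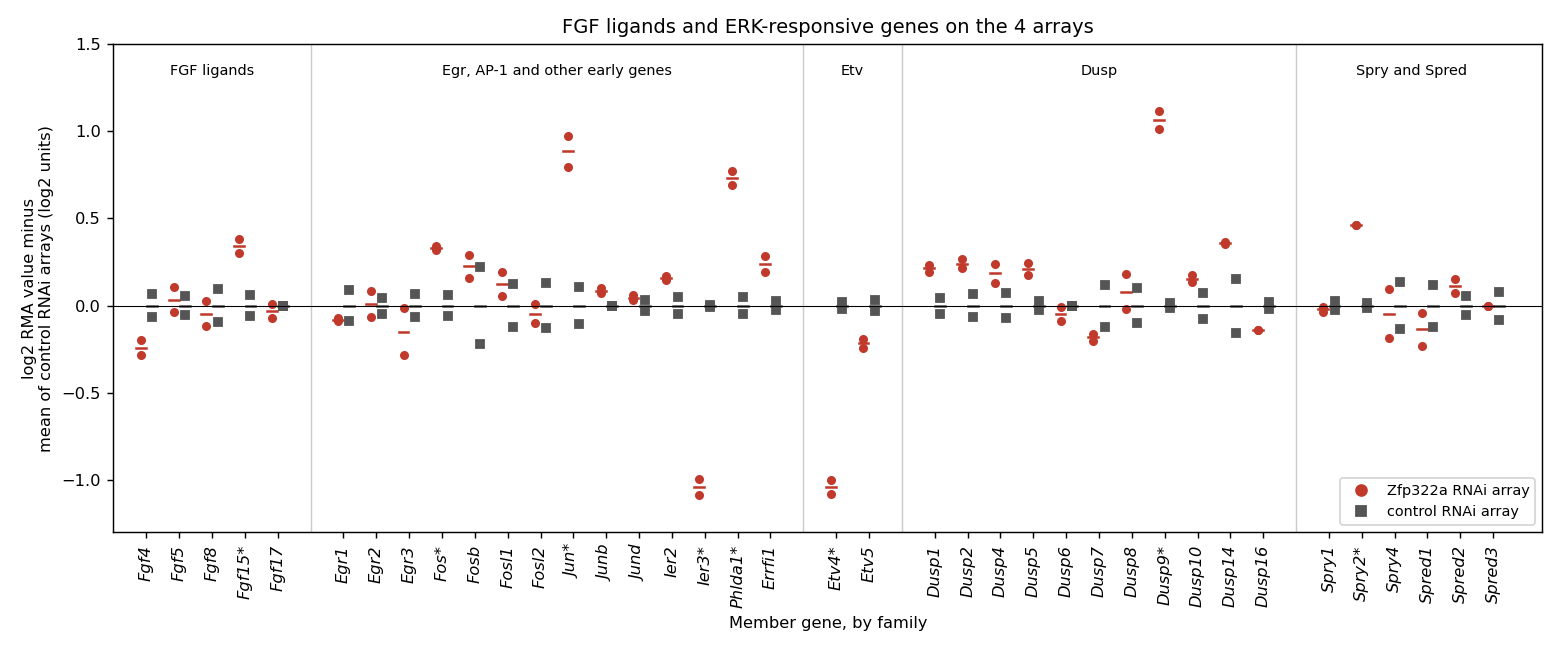
Log2 signal of each of the 38 measured genes on each array minus the mean of its control RNAi arrays, by family, with short lines at group means, the Zfp322a RNAi points left of the control RNAi points and 2 arrays per group; an asterisk marks genes past an adjusted p of 0.05. For most genes the points of the groups lie close together, and Dusp9, Jun, Phlda1, Etv4 and Ier3 show the widest gaps.

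Among the FGF ligands, 1 of 5 passed the test. Fgf15, the mouse counterpart of human FGF19 and an endocrine ligand in the gut, rose, and Fgf4 did not pass. Fgf15 read 6.71 and 6.63 in Zfp322a RNAi cells, against 6.27 and 6.39 in control RNAi cells. Both knock-down arrays were above both control arrays, by 0.34 ± 0.08 or 1.27-fold (adjusted p = 0.0238). Fgf4 read 10.35 and 10.44 in Zfp322a RNAi cells, against 10.57 and 10.70 in control RNAi cells, a log2 change of -0.24 (adjusted p = 0.0759). Its arrays did not overlap between the groups, and all 4 of its probe sets gave negative changes, between -0.35 and -0.24. Tested among all probe sets, the dimmest of the 4 passed on its own (adjusted p = 0.0453). Fgf5 marks primed epiblast cells, and Fgf8 and Fgf17 are ligands of the gastrulating embryo and of the midbrain. All had overlapping arrays, with changes of -0.045 to 0.035. Fgf5 and Fgf8 were dim, with mean signals of 5.25 and 5.29, and may not have been detected. That of Fgf17 was 6.165.

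Of the transcription factors that ERK and other kinases switch on first, Jun and Fos rose and the Egr genes did not pass the test. Jun and Fos proteins pair to form the AP-1 factor, and Egr1 to Egr3 are zinc finger factors of the same early wave. Jun read 7.03 and 6.85 in Zfp322a RNAi cells, against 5.95 and 6.16 in control RNAi cells, with no overlap. The change was 0.89 ± 0.10, or 1.85-fold (adjusted p = 0.00281). A dimmer second Jun probe set read 6.26 and 5.58 in Zfp322a RNAi cells, against 5.23 and 5.07 in control RNAi cells, a change of 0.77 that did not pass the test (adjusted p = 0.0524 among all probe sets). Fos read 7.70 and 7.72 in Zfp322a RNAi cells, against 7.32 and 7.44 in control RNAi cells. It was higher on both knock-down arrays than on both control arrays, by 0.33 ± 0.08 or 1.26-fold (adjusted p = 0.0228).

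Egr1, in contrast, had overlapping arrays. It read 8.78 and 8.76 in Zfp322a RNAi cells, against 8.76 and 8.94 in control RNAi cells, a change of -0.08 with a 95% interval of -0.29 to 0.13 (adjusted p = 0.536). Egr3 read 7.47 and 7.74 in Zfp322a RNAi cells, against 7.82 and 7.69 in control RNAi cells, with overlap, and Egr2 changed by 0.01. The AP-1 genes Junb, Fosb, Fosl1 and Fosl2 had changes of -0.045 to 0.225 and none passed the test. Jund read 10.19 and 10.22 in Zfp322a RNAi cells, against 10.13 and 10.19 in control RNAi cells, with overlap. Of the 7 AP-1 genes 2 were higher and 0 lower, beside 14% and 14.4% of all genes.

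The other early-response genes held the lowest change of the family. Ier3, an early-response gene whose product is an ERK substrate, read 7.22 and 7.13 in Zfp322a RNAi cells, against 8.21 and 8.22 in control RNAi cells. The groups were far apart, and the change was -1.04 ± 0.07, 2.06-fold lower (adjusted p = 9.79e-04). Phlda1, an early-response gene with a pleckstrin homology-like domain, went the other way. It read 9.02 and 8.94 in Zfp322a RNAi cells, against 8.20 and 8.30 in control RNAi cells, a rise of 0.73 ± 0.08 or 1.66-fold (adjusted p = 0.00204). Errfi1, which inhibits the EGF receptor and is induced by it, read 8.95 and 8.86 in Zfp322a RNAi cells, against 8.64 and 8.69 in control RNAi cells. Its groups did not overlap, and its change of 0.24 did not pass the test (adjusted p = 0.0557). Ier2, a nuclear early-response protein, read 10.73 and 10.75 in Zfp322a RNAi cells, against 10.53 and 10.63 in control RNAi cells, also without overlap and without passing (adjusted p = 0.161).

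The early-response genes also answer stress, and stress genes were higher in the same samples. All 10 of a list of heat shock, oxidative and amino acid stress genes (Hspa1a, Hspa1b, Hsph1, Dnajb1, Hmox1, Ddit3, Atf3, Trib3, Chac1 and Gadd45a) rose, by 0.515 to 3.12 on the log2 scale, beside 14% of all genes that were higher. The list was chosen with earlier results of these data known, so this count is not independent of them. Their mean signal was 10.32 and 10.28 in Zfp322a RNAi cells, against 8.75 and 8.72 in control RNAi cells. Their part in the changes of Jun, Fos, Phlda1 and Ier3 was not tested.

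To show what lies upstream of these genes, the stretch around the start site was searched for the elements through which ERK and related kinases act. RefSeq promoter windows (GRCm38.p6, 250 bases before to 50 after the start) were at hand for 26 of the 38 genes. Among the 5 genes that passed the test with at least a 1.5-fold change, Jun and Ier3 had one. The Dusp5 window is added, chosen after it was seen, because it holds a pair of CArG boxes, the element bound by serum response factor. Capitals mark matches, and the strand of the gene is printed.
Jun, chr4:95052173-95052472, minus strand: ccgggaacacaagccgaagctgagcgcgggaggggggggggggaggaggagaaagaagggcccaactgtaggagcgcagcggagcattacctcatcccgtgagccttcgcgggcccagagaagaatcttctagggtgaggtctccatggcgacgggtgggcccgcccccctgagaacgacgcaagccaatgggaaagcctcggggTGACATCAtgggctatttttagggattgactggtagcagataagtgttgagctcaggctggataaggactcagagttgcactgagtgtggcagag
Ier3, chr17:35821463-35821762, plus strand: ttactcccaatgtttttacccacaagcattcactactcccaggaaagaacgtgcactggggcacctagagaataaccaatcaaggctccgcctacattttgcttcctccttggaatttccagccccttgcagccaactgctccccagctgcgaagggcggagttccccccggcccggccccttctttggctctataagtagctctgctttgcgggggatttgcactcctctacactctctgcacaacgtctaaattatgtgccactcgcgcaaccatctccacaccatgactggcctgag
Dusp5, chr19:53528895-53529194, plus strand: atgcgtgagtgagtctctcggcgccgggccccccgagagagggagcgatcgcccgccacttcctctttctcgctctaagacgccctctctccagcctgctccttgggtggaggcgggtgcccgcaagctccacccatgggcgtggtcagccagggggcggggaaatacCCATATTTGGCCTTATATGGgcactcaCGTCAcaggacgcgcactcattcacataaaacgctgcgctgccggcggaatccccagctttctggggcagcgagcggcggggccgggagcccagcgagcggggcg
The Jun window holds TGACATCA, 45 bases before the start, an element close to the cAMP response element TGACGTCA. TGACATCA was added to the search after this window had been read, and a Dusp10 window and 3.62% of all 32851 windows hold it. The Ier3 window has no match to any of the letters searched. The Dusp5 window has CArG boxes beginning 82 and 72 bases before the start and CGTCA beginning 55 before it. The 26 genes had 32 windows. On both strands, TGACGTCA was in windows of Dusp1, Dusp8 and Errfi1 (9.38% of the 32), beside 1.79% of all windows. Its short form TGACG, which lies within it, was in windows of 11 of the 26 genes (40.6% of the 32), beside 20.8% of all. A CArG box was in windows of Dusp5 and Egr2 (15.6% of the 32, several of them overlapping Egr2 windows), beside 1.63% of all windows. The EGR element GCGGGGGCG was in windows of Dusp2, Fosb and Fosl2 (9.38% of the 32), beside 2.91% of all. Differences between these shares were not tested. For ETS factors only CCGGAAG, a stretch longer than their core, was searched, and shorter forms were not. The AP-1 element TGAGTCA and CCGGAAG were in 0 of the 32 windows of these genes, and in 5.2% and 8.86% of all windows. These are matches of letters and not measured binding sites.

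The Etv genes are ETS factors of the PEA3 group that FGF signalling is known to induce. Of the 2 measured, 1 passed the test, and the difference between them was not tested. Etv4 fell: it read 8.53 and 8.45 in Zfp322a RNAi cells, against 9.51 and 9.55 in control RNAi cells. The change was -1.04 ± 0.07, 2.06-fold lower (adjusted p = 9.79e-04), and a second Etv4 probe set fell by 1.21 (adjusted p = 0.00224 among all probe sets). Etv5 read 11.33 and 11.28 in Zfp322a RNAi cells, against 11.55 and 11.49 in control RNAi cells. Its arrays did not overlap, but the change of -0.215 did not pass the test (adjusted p = 0.0691). The direction rests on the probe set chosen, since its dimmer probe sets gave 0.13 and 0.36, neither past the test.

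**Figure D2:**
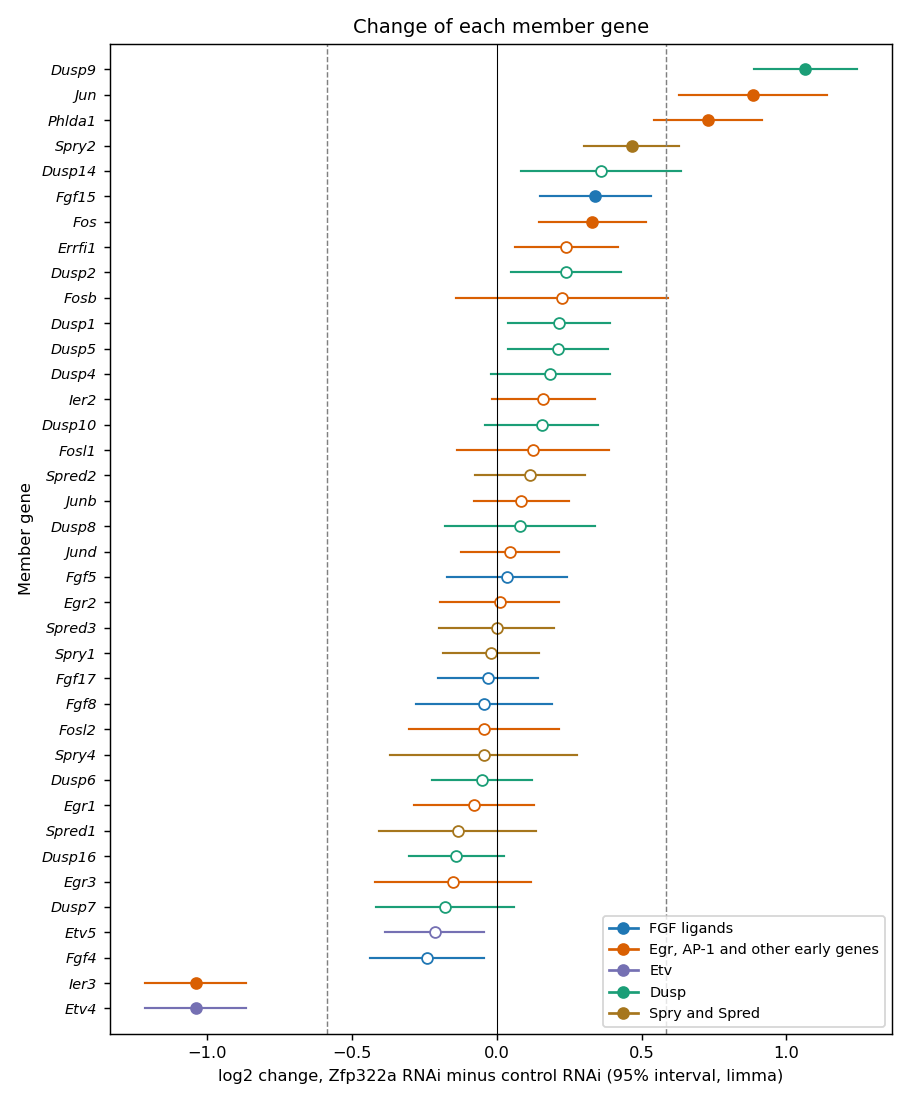
Log2 change, Zfp322a RNAi minus control RNAi, of each measured gene with its 95% interval from limma (2 arrays per group), ordered by size and coloured by family; filled points passed an adjusted p of 0.05, open points did not, and dashed lines stand at a 1.5-fold change. Dusp9, at 1.07, is highest, and Etv4 and Ier3, at -1.04 each, are lowest.

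Among the Dusp phosphatases, Dusp9 rose and 10 were not past the threshold. Dusp6, Dusp7 and Dusp9 are the cytoplasmic phosphatases that act mainly on ERK, and Dusp9 is known to hold ERK activity down in mES cells. Dusp9 read 9.56 and 9.46 in Zfp322a RNAi cells, against 8.43 and 8.46 in control RNAi cells. The groups were far apart, and the change was 1.07 ± 0.07, or 2.09-fold (adjusted p = 9.79e-04). Its other probe sets read 1.14 and 0.62 higher, each past the test among all probe sets (adjusted p = 0.00133 and 0.00411). For Dusp6 the values of the groups lay close together. It read 10.03 and 9.95 in Zfp322a RNAi cells, against 10.04 and 10.04 in control RNAi cells, a change of -0.05 with a 95% interval of -0.22 to 0.12 (adjusted p = 0.646). Dusp7 read 7.24 and 7.20 in Zfp322a RNAi cells, against 7.52 and 7.28 in control RNAi cells (change -0.18, adjusted p = 0.229).

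The nuclear phosphatases Dusp1, Dusp2, Dusp4 and Dusp5, which are themselves early-response genes, had arrays that did not overlap, with the knock-down above the control, as 26.8% of all genes had, and none of the 4 passed the test. Dusp1, which acts on p38 and JNK as well as ERK, read 10.40 and 10.44 in Zfp322a RNAi cells, against 10.16 and 10.25 in control RNAi cells (change 0.215, adjusted p = 0.0755). Dusp5, specific for ERK, read 7.90 and 7.97 in Zfp322a RNAi cells, against 7.70 and 7.75 in control RNAi cells (change 0.21, adjusted p = 0.0762). Dusp2 and Dusp4 had changes of 0.24 and 0.185. Dusp8, Dusp10 and Dusp16 act mainly on p38 and JNK. Dusp8 read 7.18 and 7.38 in Zfp322a RNAi cells, against 7.10 and 7.30 in control RNAi cells, with overlap, and Dusp10 changed by 0.155 without overlap. Dusp16 read 9.56 and 9.56 in Zfp322a RNAi cells, against 9.68 and 9.72 in control RNAi cells (change -0.14, adjusted p = 0.181), and its dimmer probe set was lower by itself (change -0.39, adjusted p = 0.0169 among all probe sets). Dusp14, an atypical small phosphatase, changed by 0.36 (adjusted p = 0.0612). Over the family, the arrays of the knock-down lay above those of the control for 7 of 11 genes, beside 26.8% of all genes, and below them for 3, beside 35.8% of all genes. The median change was 0.185. Whether the family differed from all genes was not tested.

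Among the inhibitors that act nearer the receptor, Spry2 rose and 5 genes were not past the threshold. Sprouty proteins hold back RAS and RAF activation after receptor stimulation, and Spred proteins bring the RAS inhibitor neurofibromin to the membrane. Spry2 read 10.18 on both Zfp322a RNAi arrays, against 9.73 and 9.70 on the control RNAi arrays. The rise was 0.47 ± 0.07, or 1.38-fold (adjusted p = 0.005), and its second probe set rose by 0.425 (adjusted p = 0.0126 among all probe sets). Spry1 read 7.34 and 7.37 in Zfp322a RNAi cells, against 7.40 and 7.35 in control RNAi cells, with overlap. Spry4 read 9.25 and 8.97 in Zfp322a RNAi cells, against 9.29 and 9.02 in control RNAi cells, with overlap. Spry2 was thus the single Sprouty gene past the test, and differences between the Sprouty genes were not tested.

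Spred1 had the most probe sets, 8, and most gave negative changes, though not all passed the test. Its brightest read 9.58 and 9.39 in Zfp322a RNAi cells, against 9.74 and 9.50 in control RNAi cells, with overlap (change -0.135, adjusted p = 0.424). 3 dimmer probe sets were lower, with changes of -0.515 to -0.365. The range over all 8 was -0.515 to 0.10, with 0.10 the only positive change. Averaged over the 8, the change was -0.252 and passed the test (adjusted p = 0.0454). Spred2 read 9.81 and 9.73 in Zfp322a RNAi cells, against 9.71 and 9.60 in control RNAi cells, without overlap (change 0.115, adjusted p = 0.327). Spred3 changed by 0.00.

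**Figure D3:**
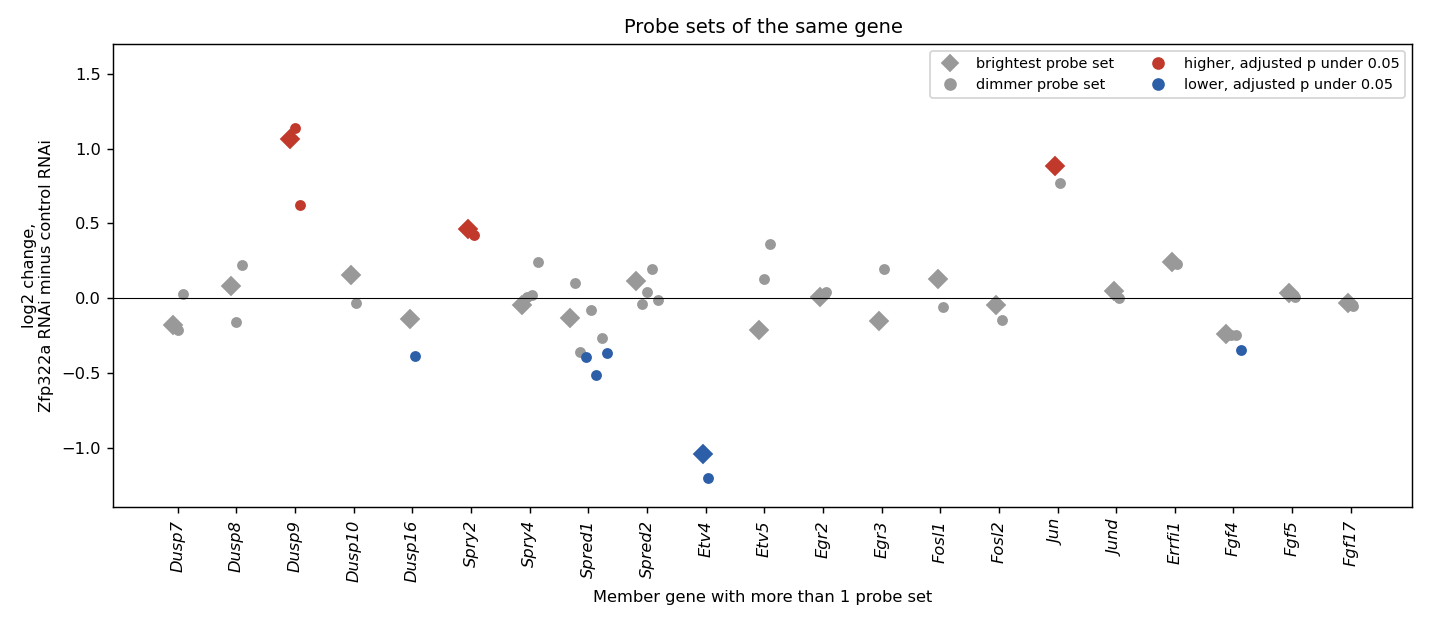
Log2 change, Zfp322a RNAi minus control RNAi, of every probe set of the genes that have more than 1, with diamonds at the brightest probe set of each gene. The probe sets of Dusp9 all lie above 0 and those of Etv4 and Fgf4 below it, while those of Etv5 lie on both sides. Those of Spred1 lie mostly below 0.

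Counted as probe sets, 9 of 76 were higher (11.8%), beside 10.6% of all 45037 probe sets, and 8 of 76 were lower (10.5%), beside 9.47% of all. 17 genes had 1 probe set and 21 had more. The lower probe sets that did not belong to Etv4 or Ier3 were those of Spred1, Dusp16 and Fgf4. Probe sets of 1 gene share its transcript and are not replicates.

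The rest of the pathway was looked at in a list of 57 further genes, ordered by role, of which 49 were measured. Of these, 14 were higher and 7 were lower (28.6% and 14.3%, beside 14% and 14.4% of all genes), 28 did not pass the test, and the median change was 0.04. Whether the list differed from all genes was not tested. Among 8 receptors and co-receptors, Gpc4, a heparan sulphate proteoglycan, rose by 0.64 (adjusted p = 0.00642) and Fgfr2 by 0.345 (adjusted p = 0.0131). Sdc4, another such proteoglycan, fell by 0.715 (adjusted p = 0.0018), with Klb and Fgfr1 also lower, at -0.39 and -0.275. Sdc4 read 10.78 and 10.81 in Zfp322a RNAi cells, against 11.47 and 11.55 in control RNAi cells, and its second probe set fell as well. The receptors thus had calls in both directions.

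Between the receptor and ERK, Frs3, an adaptor of FGF receptors, rose by 0.375 (adjusted p = 0.0164). The RAS activators Sos1 and Sos2 rose by 0.42 and 0.665, and the adaptor Shc1 fell by 0.31 (adjusted p = 0.0185). Nras and Araf rose by 0.41 and 0.29, and Braf fell by 0.42, out of 7 of the 12 RAS, RAF, MEK and ERK genes that were measured. Map2k1 and Map2k2, which encode the MEK kinases, changed by 0.11 and -0.155 and did not pass. Downstream, the ERK-activated kinase genes Rps6ka3 and Rps6ka5 rose by 0.625 and 0.57, and Srf, the factor that binds the CArG box, fell by 0.49 (adjusted p = 0.00728).

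Among other inhibitors, the RAS GTPase-activating genes Rasa1 and Nf1 rose by 0.69 and 0.52, and Rasa2, of the same function, fell by 0.66 (adjusted p = 0.00195). Of 13 further FGF family genes, 3 were higher and 0 were lower. Fgf1 rose by 0.665 (adjusted p = 0.00222) and Fgf18 by 0.50 (adjusted p = 0.00801). Fgf13, which acts inside the cell and not as a secreted ligand, rose by 0.615 (adjusted p = 0.0033). Fgf18 was dim, at 5.28 and 5.45 in control RNAi cells, and may not have been detected there. Fgf1 read 8.42 and 8.48 in Zfp322a RNAi cells, against 7.82 and 7.75 in control RNAi cells. Many of these calls rest on 1 probe set. When a gene's probe sets were averaged, 10 of the 21 no longer passed: Fgfr1, Fgfr2, Klb, Sos1, Nras, Braf, Rps6ka3, Rps6ka5, Rasa1 and Nf1. For Sos1 and Nras another probe set passed the test in the opposite direction, with changes of -0.65 and -0.54. Without probe sets open to cross-hybridization, Fgfr1, Fgfr2, Araf and Srf no longer passed. With array centring, Fgfr1 no longer passed. Among the genes that had not passed, Elk3 did when its probe sets were averaged (change -0.454, adjusted p = 0.00527). A dimmer probe set passed by itself as higher for Gab1 and Shoc2, and as lower for Fgfr4, Elk4 and Cbl.

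**Figure D4:**
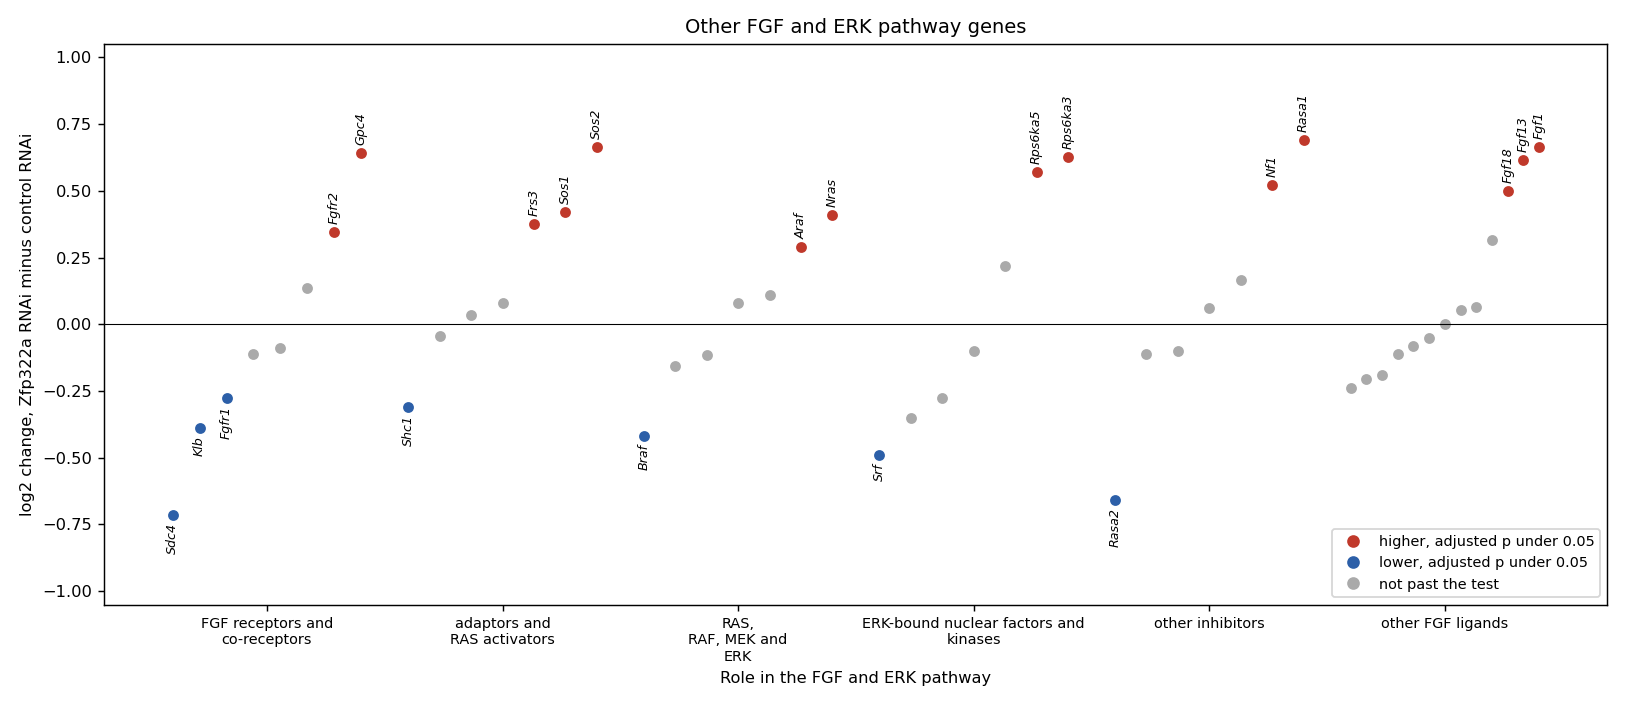
Log2 change, Zfp322a RNAi minus control RNAi, of 49 further FGF and ERK pathway genes by role, 1 brightest probe set per gene, with the genes past an adjusted p of 0.05 named. Higher and lower calls stand side by side in each role except the further FGF family genes (labelled other FGF ligands), where 3 are higher and 0 lower.

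Markers of other cells moved with the knock-down in part. Of 8 primitive endoderm markers, 6 were higher (Gata6, Sox7, Sox17, Foxa2, Dab2 and Pdgfra), 1 was lower (Lama1) and Gata4 did not pass, beside 14% and 14.4% of all genes. When probe sets were averaged, Sox7, Dab2 and Pdgfra no longer passed, nor did Lama1 with array centring or Dab2 with a variance trend. Sox7 was dim, at 5.01 and 4.96 in control RNAi cells, and may not have been detected there. The mean signal of the 8 was 6.69 and 6.68 in Zfp322a RNAi cells, against 6.23 and 6.26 in control RNAi cells. Of 6 primed epiblast markers besides Fgf5, 0 were higher and Dnmt3b was lower. Of 8 fibroblast and feeder markers, Twist1 was higher and Thy1 lower, and their mean signal was 5.15 and 5.18 in Zfp322a RNAi cells, against 5.28 and 5.18 in control RNAi cells. Their part in the changes of the FGF and ERK genes was not tested.

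The changes of the 8 called genes were about as large without any 1 array, but the test then had little to measure the spread with. Leaving out an array leaves 1 sample in its group, which is assumed to vary like the 2 of the other group. Dusp9 then changed by 1.015 to 1.115 and Etv4 by -1.08 to -1.0. Without any 1 of the 4 arrays, 0 of 18193 genes passed the test (5147 to 5768 at an unadjusted p under 0.05), and the 8 called genes kept their direction with adjusted p of 0.0793 to 0.177 and unadjusted p of 7.53e-04 to 0.0509 (limma).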

How the data were processed

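Total RNA of 4 samples was hybridised to Affymetrix MG430 2.0 mouse arrays, 1 colour, 1 array per sample. The deposited values are log2 signals that the authors made with RMA, which corrects background, normalizes quantiles between arrays and summarises probe sets. No source used here gives the version of RMA. A change common to all genes would not appear after quantile normalization. Values were used as deposited.

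Sample titles gave the groups. The platform annotation gave gene names (34945 probe sets had 1 symbol, 932 several and 9160 none), with symbols updated by Entrez ID in the RefSeq table of GRCm38.p6. Zfp322a RNAi was compared with control RNAi in limma 3.58.1 under R 4.3.3 (lmFit, eBayes, two-sided, Benjamini-Hochberg, threshold 0.05), over 18193 genes and, separately, over 45037 probe sets, after the procedure was tested on simulated data. Changes of at least 1.5-fold, the study's cutoff, were counted beside it. Genes past the test, or with a mean signal above the median of all genes, are given with their 4 array values, and others by range. Pathway genes named passed the test, at most 4 per direction and role, with exceptions. Map2k1, Map2k2, Elk3, Gab1, Shoc2, Fgfr4, Elk4 and Cbl did not, and were named after their values were seen. The genes and lists were chosen with earlier results of these data known. Alternatives were array centring, quantile normalization, a variance trend, a filter on dim genes, the mean of all probe sets, leaving out cross-hybridizing probe sets, a replicate block and leaving out each array.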

Additional observations from a re-analysis of the deposited data

How the results depend on the processing

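Against 6 higher and 2 lower genes, a variance trend gave 10 and 4, leaving out dim genes gave 4 lower, the mean of all probe sets gave 5 lower, and the 1.5-fold rule without a test gave 3 higher. Against 9 higher and 8 lower probe sets, the variance trend gave 14 higher and leaving out dim probe sets 16 higher. With the replicate number as a block, 3 genes were higher, 2656 genes in all were called against 5163, and 0 probe sets were higher and 0 lower (17 and 14 at an unadjusted p under 0.05). Jun, Fos and Fgf15 then missed the threshold (adjusted p = 0.0514, 0.0652 and 0.0928), and among the 38 genes no other limma setting with all 4 arrays ended a call of a gene it tested. Under the block 9 of the 21 pathway calls were lost (Fgfr1, Fgfr2, Klb, Gpc4, Shc1, Nras, Araf, Srf and Fgf18), and of the marker calls Sox7, Sox17, Foxa2, Dab2, Lama1, Thy1 and Dnmt3b. The titles link same-numbered samples only by a number, and whether they were handled together is not stated. Over all probe sets, deviations from the group mean correlated at 0.056 between the first arrays of the groups. With 2 arrays per group, the second arrays mirror the first and add no further pair. Leaving out 1 array gave 0 to 0 for the higher and the lower genes, for all genes and for the higher and the lower probe sets, while at an unadjusted p under 0.05, 6 to 10 of the 38 genes were higher and 2 to 4 lower, as were 11 to 14 and 7 to 10 of their probe sets. Over all alternatives 9 further genes passed at least once (Dusp1, Dusp5, Dusp14, Dusp16, Errfi1, Etv5, Fgf4, Ier2 and Spred1), Etv5 with a positive mean over its probe sets of 0.092 that did not pass. Counts at 1.5-fold stayed at 3 higher and 2 lower, except 2 higher without dim genes, where Jun was not tested. Where counts moved, the cause was not tested. Precision is limited by there being 2 arrays per group.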
